A study of Mus musculus with 72 samples.

Results

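Clock output transcription factors carry the time signal of the circadian clock to other genes. The 9 genes described here are Dbp, Tef, Hlf, Nfil3, Ciart, Usp2, Bhlhe40, Bhlhe41 and Rora, taken by symbol as the lines of the count table whose Ensembl identifiers map to them. They are 9 of 50307 genes used, and all 9 passed the filter on low counts that left 14954 genes to test. Usp2 encodes a ubiquitin protease and not a transcription factor. Liver RNA was sequenced from mice fed a Western diet with a low, a high or a control content of isoleucine, an essential branched-chain amino acid. DBA/2J (DBA) males, DBA females, C57BL/6J (B6) males and B6 females each had low, high and control diet groups, which gave 12 groups of 6 libraries and 72 libraries in all. The strain field of the labels spells the B6 strain C56BL/6J. All mice, controls included, ate a Western diet for 12 weeks and were fasted for 16 h before sampling, so the control diet is not a standard chow and no fed liver was measured. The age field reads 18 weeks, and the labels disagree on the age when feeding began, with 6 weeks in the design text and 18 weeks in the treatment text. The labels name no time of day and do not say whether every library came from its own mouse, so p-values measure the spread between libraries, which may in part be technical.

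In the liver clock, a heterodimer of CLOCK and BMAL1 (the product of Arntl) binds E-box elements and drives genes that feed back on it. DBP, TEF and HLF are PAR bZIP activators that bind D-box elements in the promoters of detoxification and metabolic genes. NFIL3, also called E4BP4, is a bZIP repressor that binds the same D-box elements. CIART, also called CHRONO, and the proteins DEC1 (Bhlhe40) and DEC2 (Bhlhe41) repress transcription driven by CLOCK and BMAL1. RORA is a nuclear receptor that activates Arntl through ROR elements, and REV-ERB alpha (Nr1d1) represses through the same elements. USP2 removes ubiquitin from clock proteins among others, and its transcript cycles in many tissues.

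The promoters below are shown as background, because known inputs of these genes are written in short motifs. Whether the motifs bear on the diet values was not tested. RefSeq (GRCm38.p6) promoter entries were found for 8 of the 9 genes, and the 250 bases before each start were searched on both strands for an E-box (CACGTG), a D-box (TTANGTAA) and a ROR half-site (AGGTCA). The E-box occurred in 3 of the 8 genes (Ciart, Bhlhe41 and Tef). By promoter it occurred in 4 of their 9 entries and in 6.02% of all 32851 promoters of the same length. Ciart had 3 copies, at 116, 58 and 44 bases before its start, Bhlhe41 had 1 at 153 bases, and Tef had 1 in each of 2 alternative promoters, at 127 and 138 bases. The ROR half-site occurred in Nfil3, on the opposite strand 12 bases before the start, and in 14% of all promoters. The D-box occurred in none of the 8 genes and in 2.06% of all promoters, which says only that these letters are not in these windows. In the sequences below, read 5′ to 3′ on the strand of the gene, capitals mark the E-box or the ROR half-site. The Dbp window, with no match, is given for comparison, and sites outside these windows were not searched.
Ciart (chr3:95882229-95882478, minus strand): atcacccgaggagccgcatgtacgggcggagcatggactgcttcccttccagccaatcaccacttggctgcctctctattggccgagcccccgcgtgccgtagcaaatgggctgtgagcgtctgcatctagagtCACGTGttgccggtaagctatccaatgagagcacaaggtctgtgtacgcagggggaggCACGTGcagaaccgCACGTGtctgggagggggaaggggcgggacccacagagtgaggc
Bhlhe41 (chr6:145865421-145865670, minus strand): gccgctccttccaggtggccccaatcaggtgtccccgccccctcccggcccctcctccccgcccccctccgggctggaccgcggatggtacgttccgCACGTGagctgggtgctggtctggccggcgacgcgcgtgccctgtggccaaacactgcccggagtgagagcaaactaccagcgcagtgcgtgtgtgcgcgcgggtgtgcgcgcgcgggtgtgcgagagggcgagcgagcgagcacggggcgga
Tef promoter 1 (chr15:81802423-81802672, plus strand): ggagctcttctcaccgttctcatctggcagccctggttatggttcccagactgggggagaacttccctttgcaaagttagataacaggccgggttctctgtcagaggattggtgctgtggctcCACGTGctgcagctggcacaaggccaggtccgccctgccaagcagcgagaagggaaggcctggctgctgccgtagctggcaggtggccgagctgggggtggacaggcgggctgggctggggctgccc
Tef promoter 2 (chr15:81811164-81811413, plus strand): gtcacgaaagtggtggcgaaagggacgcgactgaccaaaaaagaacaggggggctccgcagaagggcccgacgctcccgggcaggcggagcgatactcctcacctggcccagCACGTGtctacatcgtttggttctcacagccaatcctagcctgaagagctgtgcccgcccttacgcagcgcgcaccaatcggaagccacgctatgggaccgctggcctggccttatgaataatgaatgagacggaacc
Nfil3 (chr13:52981040-52981289, minus strand): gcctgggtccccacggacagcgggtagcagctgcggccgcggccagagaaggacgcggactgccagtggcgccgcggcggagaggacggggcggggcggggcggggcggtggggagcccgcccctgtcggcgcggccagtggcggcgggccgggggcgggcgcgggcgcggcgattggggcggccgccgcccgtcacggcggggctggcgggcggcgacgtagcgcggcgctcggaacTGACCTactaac
Dbp (chr7:45704997-45705246, plus strand): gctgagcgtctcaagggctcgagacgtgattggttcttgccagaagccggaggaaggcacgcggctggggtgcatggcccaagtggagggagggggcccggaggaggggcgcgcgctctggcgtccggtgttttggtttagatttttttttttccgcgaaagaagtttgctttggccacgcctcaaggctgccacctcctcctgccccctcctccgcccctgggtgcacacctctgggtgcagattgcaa

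Libraries held 12958975 to 51125371 counts, with a median of 24128733. The sexes in the labels matched the data, with Xist at 216 to 1040 CPM (counts per 1000000 of a library after TMM scaling) in female libraries and at most 0.985 CPM in male libraries. Ddx3y was at 15.7 to 50.4 CPM in male libraries and at 0 in female libraries, other than 0.568 CPM in B6 female control replicate 4. That library also had one of the lowest quality weights (0.317), and DBA male high replicate 3 had the lowest (0.211). Each test of the 9 genes was repeated without either library, and all calls were kept. Of the marker lists, hepatocyte genes summed to 80500 to 130000 CPM on low isoleucine, 55200 to 107000 CPM on high isoleucine and 63600 to 107000 CPM on control. In these bulk samples, fewer cells of a type and less RNA per cell cannot be told apart.

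Per kilobase of exon, Dbp (18.3), Tef (17), Nfil3 (13.1) and Bhlhe40 (11) had the highest mean levels over all libraries, in CPM per kb. Hlf followed at 8.05 CPM per kb, Rora at 3.38, Usp2 at 2.17, Ciart at 1.92 and Bhlhe41 at 0.275. Dbp also varied most of the 9 between groups: its group means ran from 2.87 CPM in B6 females on low isoleucine to 167 CPM in DBA males on control, a 58-fold range. Bhlhe41 had a 20-fold range, Ciart 14.6-fold and Usp2 11.5-fold, while Rora ranged 1.58-fold and Hlf 1.78-fold. The group of DBA males on control had the highest mean of Dbp, Tef, Hlf, Ciart and Bhlhe41. Bhlhe41 was thinly counted, with 1 to 259 counts per library and under 10 counts in 13 libraries.

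**Figure D1:**
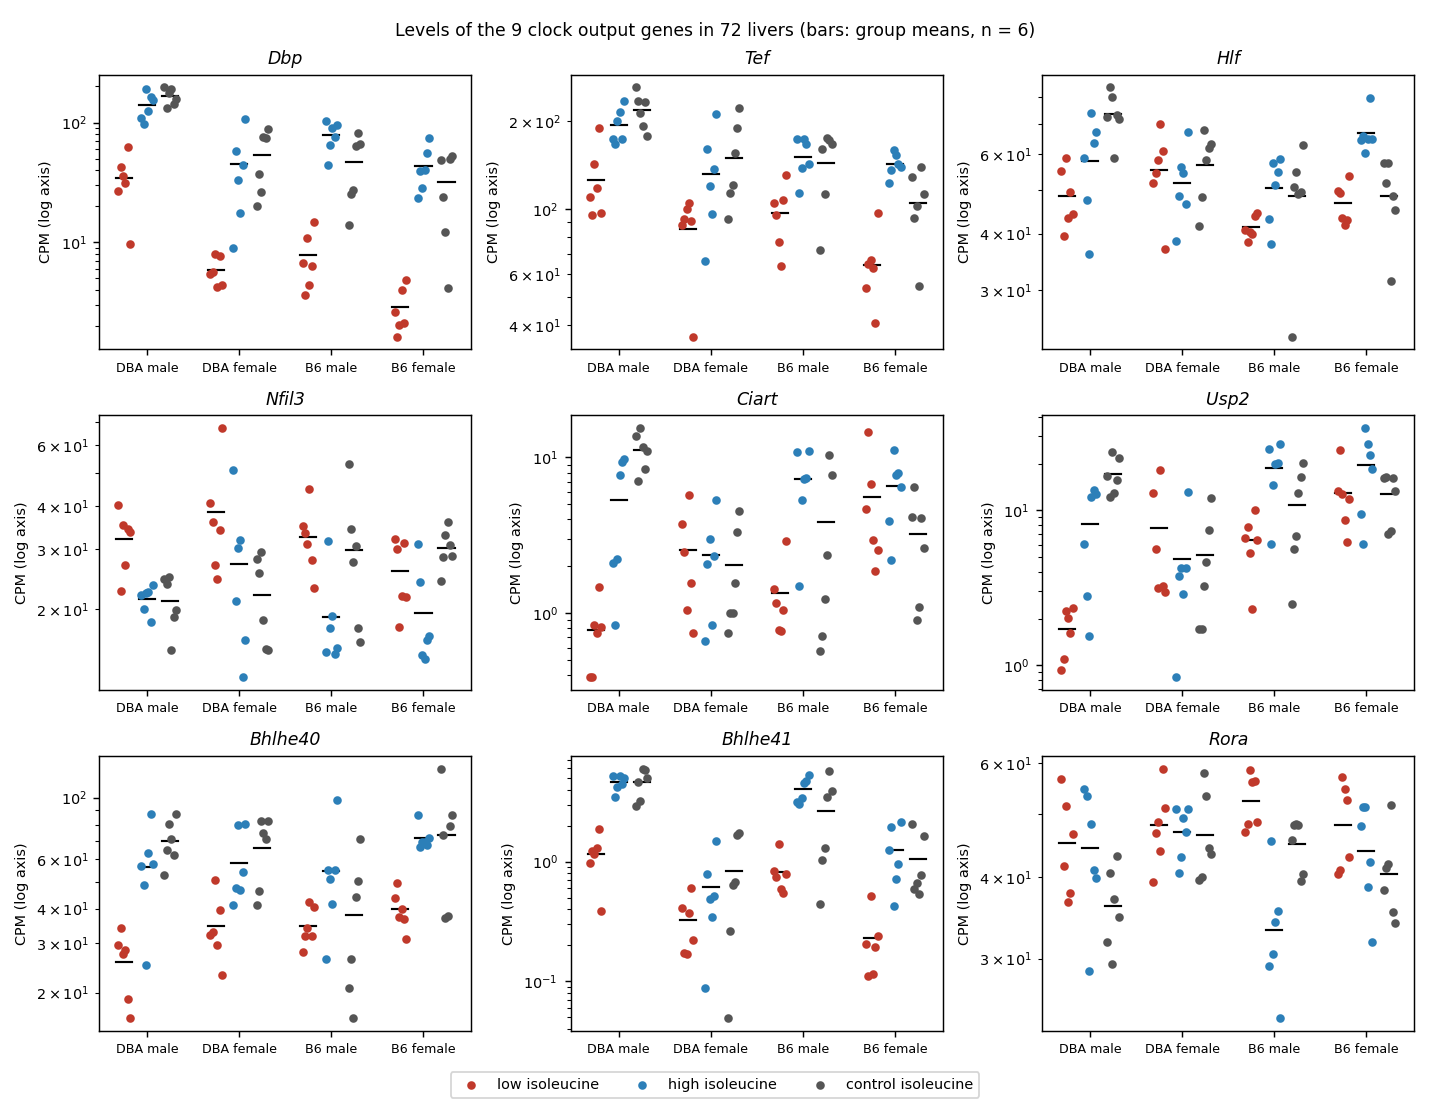
Level of each gene in every library, in CPM on log axes, for DBA males, DBA females, B6 males and B6 females on low (red), high (blue) and control (grey) isoleucine; bars are group means (n = 6). Dbp on low isoleucine lay below the control mean in every class, whereas Ciart and Usp2 separated low from control in DBA males.

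On low isoleucine most of these genes were lower, Dbp furthest among the PAR bZIP activators. Averaged over the 4 strain and sex classes, 2 of the 9 genes were higher (Nfil3 and Rora) and 7 were lower (Dbp, Tef, Hlf, Ciart, Usp2, Bhlhe40 and Bhlhe41) at a Benjamini-Hochberg adjusted p under 0.05 over all genes. In the same comparison 37.8% of all tested genes were called, so a call as such was common. The median log2 fold change was -0.85 over the 9 genes and -0.0035 over all genes.

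Dbp, on chromosome 7 from 45705088 to 45710203 (GRCm38), fell in each class. In DBA males it was at 9.65, 33.2 and 62.7 CPM (lowest, median, highest) on low isoleucine, against 132, 167 and 198 CPM on control. In DBA females it was at 4.2, 5.5 and 8.03 CPM on low isoleucine, against 20, 55.8 and 89.1 CPM on control. Low and control libraries did not overlap in either DBA class. In B6 males Dbp was at 3.62, 6.48 and 14.7 CPM on low isoleucine, against 13.9, 45.5 and 81.9 CPM on control. In B6 females it was at 1.63, 2.34 and 4.87 CPM on low isoleucine, against 4.14, 36.2 and 53 CPM on control. In B6 males the highest low library passed 1 control library, and in B6 females the overlap came from control replicate 4. The mean log2 fold change was -2.88 ± 0.24 (SE; edgeR quasi-likelihood test, adjusted p = 2.9e-14), which is 7.38-fold lower and ranked 7 by p among all tested genes. By class it was -2.27 in DBA males, -3.20 in DBA females, -2.59 in B6 males and -3.48 in B6 females, and it passed the test in all 4. Dbp shares 539 exon bases with Sphk2 on the other strand, and the strand setting of the counting is not given in the sources used here.

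Tef fell by less than Dbp. Its mean log2 fold change was -0.72 ± 0.11 (adjusted p = 5e-07), with -0.80 in DBA males, -0.80 in DBA females, -0.57 in B6 males and -0.70 in B6 females. The B6 male value missed the threshold with edgeR (adjusted p = 0.13) and passed with limma's library weights (-0.62 ± 0.20, adjusted p = 0.036). In DBA males Tef was at 95.2, 114 and 189 CPM on low isoleucine, against 178, 222 and 261 CPM on control, with 1 low library inside the control range. Hlf had the smallest change of these activators, with a mean log2 fold change of -0.23 ± 0.08 (adjusted p = 0.012). It fell in DBA males (-0.60 ± 0.15, adjusted p = 0.0026), at 39.5, 46.8 and 58.9 CPM on low isoleucine, against 58.7, 72.8 and 84.3 CPM on control. In the other classes Hlf had values of -0.04 in DBA females, -0.23 in B6 males and -0.05 in B6 females, which did not pass.

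Nfil3, the repressor at the same D-box elements, was higher on low isoleucine by a mean log2 fold change of 0.32 ± 0.12 (adjusted p = 0.03). It rose in DBA females (0.80 ± 0.25, adjusted p = 0.024), at 24.6, 35 and 67.5 CPM on low isoleucine, against 15.3, 22.1 and 29.4 CPM on control. In a fit of DBA females alone the calls of Nfil3 and Tef were lost (adjusted p = 0.11 and 0.076). The groups overlapped for Nfil3. The highest low library, replicate 6, was at 67.5 CPM, with the next low library at 40.7 CPM. Replicate 6 was also the lowest low library of the class in Tef, at 36.6 CPM, and no fit left it out. In DBA males Nfil3 was at 22.7, 33.9 and 40.3 CPM on low isoleucine, against 15.3, 21.9 and 24.8 CPM on control, with a log2 fold change of 0.60 that did not pass in the common fit (adjusted p = 0.081) and passed in a fit of DBA males alone (0.61 ± 0.14, adjusted p = 0.0036). The B6 values were 0.12 in males and -0.22 in females, neither of which passed.

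Among the repressors of CLOCK and BMAL1, Bhlhe41 and Bhlhe40 were lower on low isoleucine in the mean of classes and each in 3 of the 4 classes. Bhlhe41 had a mean log2 fold change of -1.82 ± 0.24 (adjusted p = 1.5e-08), with -2.0 in DBA males, -1.40 in DBA females, -1.72 in B6 males and -2.14 in B6 females. The DBA female value missed the threshold with edgeR (adjusted p = 0.073) and passed with DESeq2 (adjusted p = 0.037). In DBA males Bhlhe41 was at 0.386, 1.19 and 1.89 CPM on low isoleucine, against 2.94, 4.83 and 5.98 CPM on control. In B6 females it was at 0.111, 0.2 and 0.518 CPM on low isoleucine, against 0.535, 0.72 and 2.08 CPM on control. The groups did not overlap in either class. The gene Gm43909 on the other strand shares 1280 exon bases with Bhlhe41, so their reads may not have been told apart.

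Bhlhe40 fell by a mean of 0.85 ± 0.14 on the log2 scale (adjusted p = 9.8e-07). In DBA males it was at 16.2, 27.9 and 34 CPM on low isoleucine, against 52.7, 67.9 and 87.4 CPM on control, without overlap. The log2 fold change was -1.44 in DBA males, -0.93 in DBA females and -0.89 in B6 females, all past the threshold. It was -0.14 ± 0.27 in B6 males (adjusted p = 0.85), whose control libraries spread from 16.2 to 71.3 CPM.

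Ciart and Usp2 fell in DBA males, where their low and control libraries did not overlap. Ciart lies on chromosome 3 from 95878503 to 95882251 and Usp2 on chromosome 9 from 44067021 to 44095627 (GRCm38). Ciart was at 0.386, 0.773 and 1.48 CPM in DBA males on low isoleucine, against 7.07, 11.3 and 15.5 CPM on control. Its log2 fold change there was -3.86 ± 0.67 (adjusted p = 2e-05), a 14.5-fold lower level and the largest fold of the 9 genes in any class on low isoleucine. The size of this fold rests on few counts, 11 to 43 per low library against 189 to 329 per control library. In the other classes Ciart had log2 fold changes of 0.29 in DBA females, -1.49 in B6 males and 0.80 in B6 females, and none passed. Usp2 was at 0.933, 1.82 and 2.35 CPM in DBA males on low isoleucine, against 12.1, 16.1 and 23.7 CPM on control. Its log2 fold change there was -3.35 ± 0.57 (adjusted p = 1.4e-05), 10.2-fold lower. Usp2 had values of 0.56 in DBA females, -0.75 in B6 males and 0.03 in B6 females, none of which passed. The class means of -1.06 ± 0.31 for Ciart (adjusted p = 0.0047) and -0.88 ± 0.26 for Usp2 (adjusted p = 0.005) therefore average unlike values.

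Rora, the activator of Arntl, was higher on low isoleucine by a mean log2 fold change of 0.21 ± 0.07 (adjusted p = 0.0074). Over the 24 libraries of each diet it was at 36.6, 48.5 and 58.8 CPM on low isoleucine, against 29.4, 41 and 57.8 CPM on control. No single class passed edgeR's test, with values of 0.32 in DBA males, 0.05 in DBA females, 0.22 in B6 males and 0.25 in B6 females. With library weights limma called it in DBA males (0.35, adjusted p = 0.033) and B6 females (0.35, adjusted p = 0.015).

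Counted by class, 7 of the 9 genes were called in DBA males, all lower, against 17.7% of all tested genes. In DBA females 4 were called, 1 higher and 3 lower, against 11.8% of all genes. In B6 males 2 were called, both lower (Dbp and Bhlhe41), against 5% of all genes, and in B6 females 4 were called, all lower, against 20.8%. With the number in the library titles as a block, 6 of the 9 genes were called in the mean of classes, without Hlf, Nfil3 and Ciart (adjusted p = 0.07, 0.051 and 0.059). Of all 14954 genes, 4423 were called there. With that block 7 of the 9 were called in DBA males, against 1649 of all genes. In each other class 1 of the 9, Dbp, was called, against 827 of all genes in DBA females, 238 in B6 males and 1852 in B6 females. The block fit used 1 correlation of paired libraries, 0.24, for every gene. The value of Ciart alone was 0.55 and that of Usp2 0.45, so the fit may correct too little for them. Those of Tef (0.12) and Hlf (0.037) were lower.

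**Figure D2:**
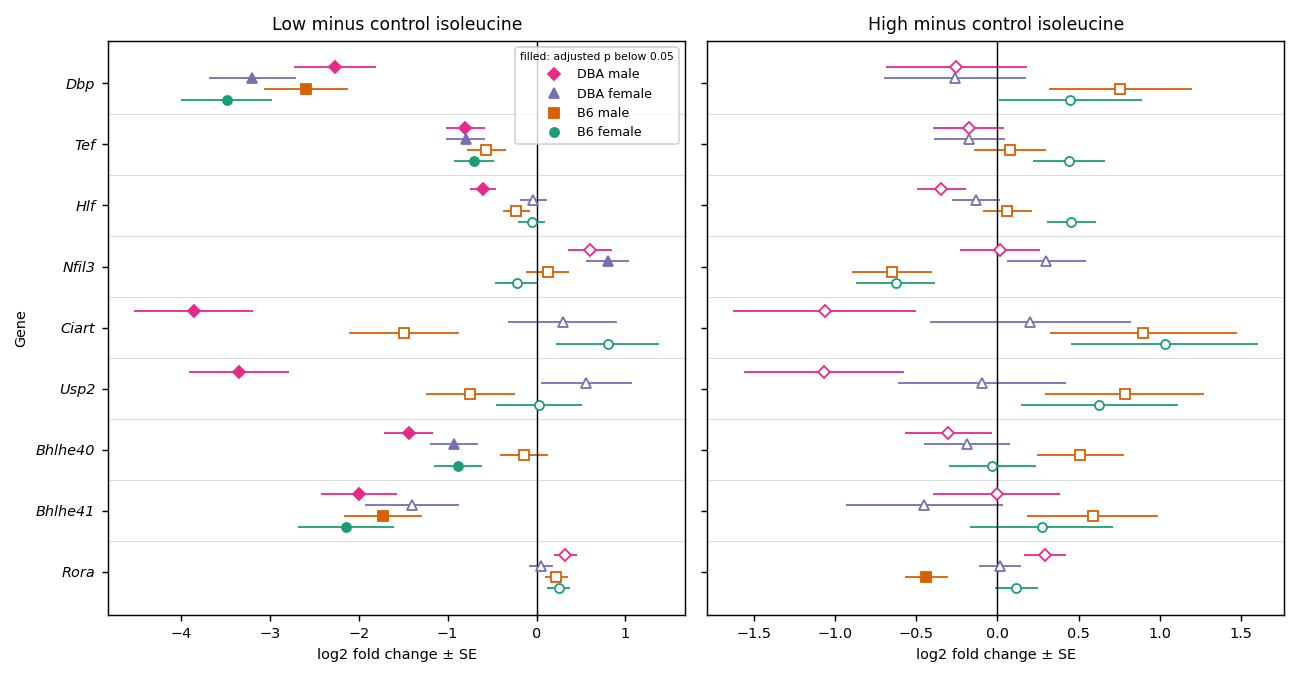
Log2 fold change ± SE of low minus control (left) and high minus control (right) isoleucine for each gene, by class; filled symbols have an adjusted p under 0.05. The DBA male values of Ciart (-3.86) and Usp2 (-3.35) stand apart from those of the other classes on the left, and Rora in B6 males (-0.44) is the filled symbol on the right.

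Whether the response to low isoleucine differed between the sexes was tested directly as an interaction, averaged over the strains. With edgeR the difference, male minus female, was called lower for Ciart (-3.22 ± 0.62, adjusted p = 0.00074) and Usp2 (-2.34 ± 0.51, adjusted p = 0.003), which is 2 of 9 genes against 6.68% of all genes. With library weights limma also called Hlf (-0.39 ± 0.13, adjusted p = 0.03). Within DBA alone, a contrast chosen after the values were seen, the difference of males minus females was -4.15 ± 0.91 for Ciart (adjusted p = 0.0044) and -3.91 ± 0.76 for Usp2 (adjusted p = 0.0015). In that contrast 2.76% of all genes were called. The same contrast within B6 was not tested. For both genes DBA males averaged below DBA females on low isoleucine and above them on control. On low isoleucine Ciart averaged 0.772 ± 0.401 CPM in DBA males and 2.55 ± 1.9 CPM in DBA females (SD, n = 6 each). On control it averaged 11.2 ± 3.18 CPM in DBA males and 2.02 ± 1.54 CPM in DBA females. Usp2 on low isoleucine averaged 1.71 ± 0.595 CPM in DBA males and 7.66 ± 6.37 CPM in DBA females, and on control 17.2 ± 4.73 CPM in DBA males and 5.12 ± 3.99 CPM in DBA females. With the title number as a block the DBA contrast of Ciart did not pass (adjusted p = 0.095).

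Between the strains, 0 of the 9 genes differed in the response to low isoleucine by edgeR's test, against 1.39% of all genes, although 4 had an unadjusted p under 0.05. DESeq2 and limma also called 0 of the 9. The nearest were Nfil3 (0.75 ± 0.25, DBA minus B6, adjusted p = 0.1) and Bhlhe40 (-0.67 ± 0.27, adjusted p = 0.2).

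On high isoleucine the changes were smaller and none passed the test in the mean of classes. Averaged over classes, 0 of the 9 genes were called by edgeR's test, 0 had an unadjusted p under 0.05, and DESeq2 and limma called 0. Of all genes 0% were called (0 genes at the adjusted threshold, 684 at an unadjusted p under 0.05, and 5 by DESeq2). The mean log2 fold changes ran from -0.24 ± 0.12 for Nfil3 to 0.27 ± 0.29 for Ciart, and Dbp was at 0.17 ± 0.22. In DBA males Dbp was at 96.8, 140 and 189 CPM on high isoleucine, against 132, 167 and 198 CPM on control.

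Within classes, Rora in B6 males was the one call, at 24.3, 32.3 and 45.5 CPM on high isoleucine, against 39.5, 46.9 and 48.3 CPM on control. Its log2 fold change was -0.44 ± 0.13 (adjusted p = 0.037), in a class where 4.51% of all genes were called. In the same class 2 of 5 hepatocyte markers were lower (median log2 fold change -0.31), and their sum was 55200 to 82200 CPM on high isoleucine and 72700 to 107000 CPM on control. The 3 adipose markers summed to 8.67 to 193 CPM in B6 males on high isoleucine and 0.0879 to 9.84 CPM on control, and Cfd, the one tested, rose (5.2 ± 0.75, adjusted p = 1.8e-05). Their part in the Rora value was not tested. The Rora call did not hold without the filter on low counts, in a fit of B6 males alone, or with library weights. In DBA males edgeR called 0 of the 9 genes (3 at an unadjusted p under 0.05) and 0.0134% of all genes. In DBA females it called 0 of the 9 (0 at an unadjusted p under 0.05) and 0.00669% of all genes. In B6 females it called 0 of the 9 (2 at an unadjusted p under 0.05) and 0% of all genes. DESeq2 and limma likewise called 0 of the 9 in these 3 classes. Hlf in B6 females was at 60.3, 64.8 and 79.6 CPM on high isoleucine, against 31.5, 50.1 and 57.3 CPM on control, without overlap, yet with an adjusted p of 0.8 (log2 fold change 0.46 ± 0.15).

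Ciart and Usp2 again had the widest spread of class values. Ciart had log2 fold changes of -1.07 in DBA males, 0.20 in DBA females, 0.90 in B6 males and 1.03 in B6 females, and none passed. Its DBA male libraries on high isoleucine fell into low and high values, with 0.84, 2.11 and 2.24 CPM beside 7.71, 9.38 and 9.77 CPM. The difference of the high response between strains was called for 0 of the 9 genes by edgeR, DESeq2 and limma (5 at an unadjusted p under 0.05), against 0.461% of all genes. That between sexes was called for 0 of the 9 by each tool (1 at an unadjusted p under 0.05), and for 0% of all genes by edgeR (1003 at an unadjusted p under 0.05; 5 by DESeq2).

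Set against each other, high and low isoleucine differed for all 9 genes, 7 higher and 2 lower (Nfil3 and Rora) on high isoleucine, where 43.6% of all genes were called. This comparison shares its low libraries with that of low against control, and its high libraries with that of high against control. Dbp was higher by 3.06 ± 0.24 on the log2 scale (adjusted p = 2.7e-15), Bhlhe41 by 1.92 ± 0.24, Ciart by 1.33 ± 0.31, Usp2 by 0.94 ± 0.26, Bhlhe40 by 0.84 ± 0.14, Tef by 0.76 ± 0.11 and Hlf by 0.24 ± 0.08. Nfil3 was at -0.57 ± 0.12 and Rora at -0.21 ± 0.07.

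On the control diet, averaged over the sexes, the PAR bZIP activators were higher in DBA than in B6. DBA minus B6, Dbp was higher by 1.30 ± 0.32 on the log2 scale (adjusted p = 0.00051), Tef by 0.56 ± 0.16 (adjusted p = 0.0026) and Hlf by 0.41 ± 0.11 (adjusted p = 0.00096). Nfil3 was lower, at -0.47 ± 0.17 (adjusted p = 0.022). These are 3 higher and 1 lower of 9 genes, against 45.4% of all genes called between the strains, a share close to that of the 9 genes. The other 5 genes had values of 0.44 for Ciart, 0.36 for Bhlhe40, 0.24 for Bhlhe41, -0.06 for Rora and -0.32 for Usp2. Nfil3 did not pass with the title number as a block (adjusted p = 0.056) or with library weights (adjusted p = 0.094). Dbp averaged 167 CPM in DBA and 46.4 CPM in B6 males, but 53.9 and 31.9 CPM in females. Tef averaged 218 and 143 CPM in males, and 149 and 105 CPM in females. Hlf averaged 73.4 and 48.4 CPM in males, and 56.8 and 48.6 CPM in females. The strains were not tested within a sex.

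Males minus females on control, 4 of the 9 genes were higher and 0 lower, against 26.2% of all genes. They were Bhlhe41 (1.91 ± 0.31 on the log2 scale, adjusted p = 1.6e-06), Ciart (1.36 ± 0.42, adjusted p = 0.011), Dbp (1.08 ± 0.31, adjusted p = 0.0069) and Tef (0.50 ± 0.16, adjusted p = 0.013). Bhlhe41 averaged 4.61 ± 1.3 CPM in DBA males and 0.834 ± 0.706 CPM in DBA females, and 2.64 ± 2.03 CPM in B6 males and 1.05 ± 0.65 CPM in B6 females (SD, n = 6 each). In DBA, Ciart averaged 11.2 CPM in males and 2.02 CPM in females, Dbp 167 and 53.9 CPM, and Tef 218 and 149 CPM. In B6, Ciart averaged 3.83 CPM in males and 3.22 CPM in females, with medians of 1.8 and 3.34 CPM. Dbp averaged 46.4 CPM in B6 males and 31.9 CPM in B6 females, with overlapping libraries, and Tef 143 and 105 CPM. The sexes were not tested within a strain. The 5 genes not called had values of 0.75 for Usp2, 0.18 for Hlf, -0.03 for Nfil3, -0.10 for Rora and -0.43 for Bhlhe40. Bhlhe40 passed without B6 female control replicate 4 (-0.50 ± 0.19, adjusted p = 0.04) and with library weights (adjusted p = 0.03), as did Usp2 with library weights (adjusted p = 0.045). Ciart did not pass with the title number as a block (adjusted p = 0.072). These differences rest on the same control libraries as the diet comparisons.

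Among libraries of the same group Ciart varied with Usp2, and Dbp with Tef and Bhlhe41. After subtraction of each group's mean log2 CPM, 32 of 36 pairs were correlated (21 positive, 11 negative) in a two-sided permutation test within groups with 100000 resamples, adjusted over the 36 pairs. By Spearman's rho 28 passed. Pairs of other genes were not tested, so whether this share is particular to the 9 genes is not known. That test exchanges all 6 libraries of a group, although libraries with the same title number resembled each other. A permutation test that swapped only the 2 libraries of each number, on 36 differences, called 12 of the 32 pairs (9 positive, 3 negative) and no others. Ciart and Usp2 had the highest correlation, with r = 0.862 and rho = 0.871 over 72 libraries (adjusted permutation p = 3e-05 and 6e-05, from the smallest p the resamples can give, 1e-05). It was 0.866 without the 2 libraries farthest from the median of Ciart, and 0.784 after subtracting the mean of each title number (adjusted permutation p = 0.0018). Dbp followed Tef (r = 0.726, rho = 0.655) and Bhlhe41 (r = 0.692, rho = 0.592), with adjusted permutation p-values of 3e-05 for each r and 6e-05 for each rho. Both values stayed similar without the 2 libraries farthest from the median of Dbp, at r = 0.664 and r = 0.679, and after subtracting the mean of each title number, at r = 0.758 and r = 0.658 (adjusted permutation p = 0.0018 and 0.01).

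Nfil3 had negative correlations with the activators, of which the one with Dbp passed both tests. Its r was -0.61 with Dbp, -0.642 with Tef and -0.4 with Hlf, with adjusted permutation p-values of 3e-05, 3e-05 and 0.0033. Spearman's rho was -0.606 with Dbp and -0.54 with Tef (adjusted permutation p = 6e-05 and 0.0001), while the rho with Hlf of -0.203 did not pass (adjusted permutation p = 0.12). Without the 2 libraries farthest from the median of the first gene, r was -0.586 with Dbp, -0.563 with Tef and -0.328 with Hlf. After subtracting the mean of each title number it was -0.528, -0.55 and -0.2 for the same pairs, and the one with Dbp passed (adjusted permutation p = 0.028, 0.083 and 0.43). The correlation of Nfil3 with Bhlhe40 was -0.348 within groups and 0.0377 after subtracting the mean of each title number, the 1 change of sign among the 32 pairs, and that of Ciart with Bhlhe40 was 0.467 and 0.141. The 4 pairs that did not pass the test within groups all held Rora, with Hlf (r = 0.00419), Nfil3 (0.213), Bhlhe40 (-0.0215) and Bhlhe41 (-0.0823). All 9 genes come from the same libraries and share their depth and scaling.

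**Figure D3:**
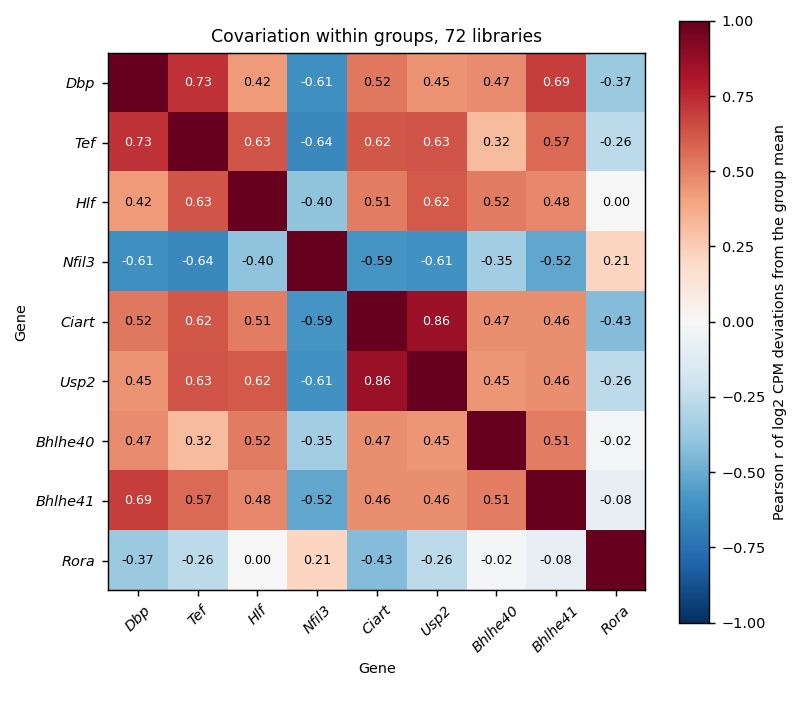
Pearson r between the genes, from log2 CPM after subtracting the group mean, over 72 libraries (red positive, blue negative). Ciart and Usp2 form the strongest pair (0.86), and Nfil3 has negative values with all genes other than Rora.

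**Figure D4:**
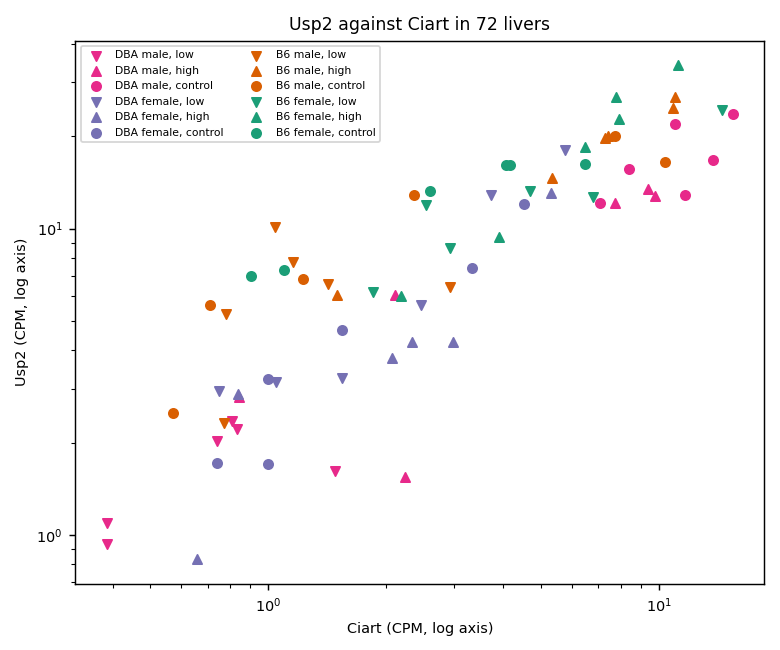
Usp2 against Ciart in each library, in CPM on log axes, coloured by class with the diet as the symbol. DBA males on low isoleucine lie at the lower left, at 0.386 to 1.48 CPM of Ciart, and DBA males on control at the upper right, at 7.07 to 15.5 CPM.

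The number in the library titles tracked part of this spread. Each of 36 numbers marks 2 libraries of 1 group, and the labels do not say what it stands for. The correlation of libraries that share a number was 0.24 as a consensus over all genes, and 0.55 for Ciart, 0.51 for Nfil3, 0.45 for Usp2, 0.44 for Bhlhe40, 0.39 for Bhlhe41, 0.31 for Dbp, 0.24 for Rora, 0.12 for Tef and 0.037 for Hlf. The limma fit with the block used the consensus for every gene, so it may correct too little for genes with a higher value. In B6 males on control, the 2 libraries numbered 7 had 81.9 and 66.3 CPM of Dbp and 10.4 and 7.71 CPM of Ciart. The 2 numbered 11 had 13.9 and 25.1 CPM of Dbp and 0.571 and 0.71 CPM of Ciart. Nfil3 stood the other way round there, at 17.7 and 16.1 CPM in number 7 and 53.1 and 34.2 CPM in number 11.

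**Figure D5:**
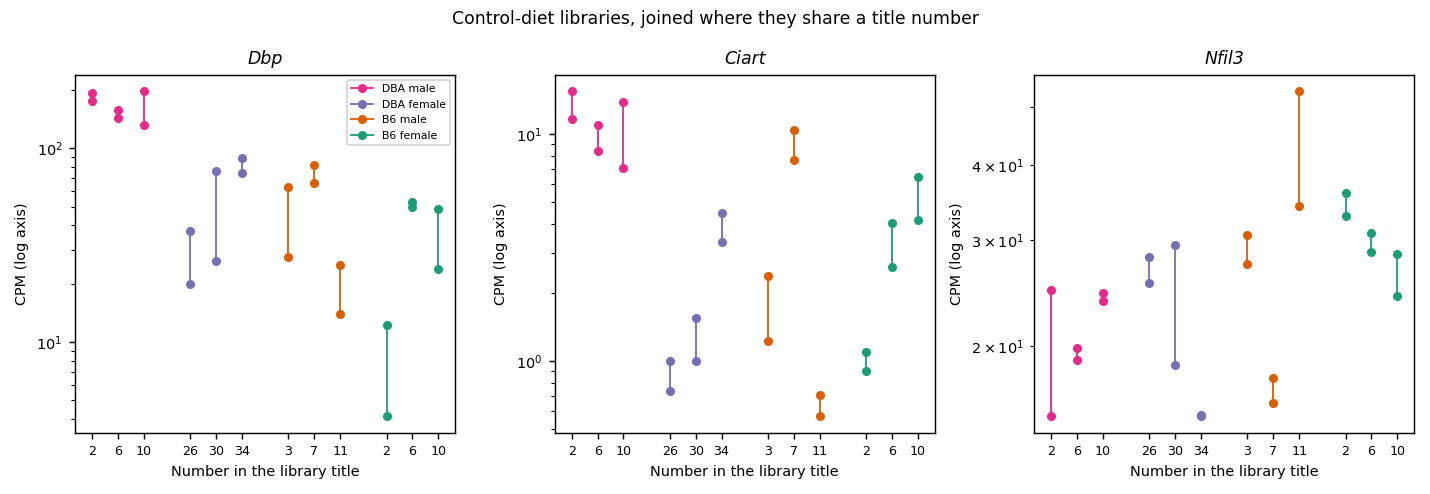
Dbp, Ciart and Nfil3 in the 24 control libraries, in CPM on log axes; lines join the 2 libraries that share a title number. In B6 males number 7 is high in Dbp and Ciart and low in Nfil3, and number 11 is the reverse.

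Other clock genes moved in both directions on low isoleucine. Of 14 core clock genes, 6 were higher and 6 lower in the mean of classes, where 37.8% of all genes were called. Their median log2 fold change was 0.13, against -0.0035 over all genes. The 4 with the lowest adjusted p were Cry1, a repressor of CLOCK and BMAL1 (1.02 ± 0.10), Npas2, a partner of BMAL1 that can replace CLOCK (1.75 ± 0.19), Arntl (1.56 ± 0.18) and Nr1d1 (-1.32 ± 0.16). Their adjusted p-values were 5.9e-12, 4.3e-11, 2.9e-10 and 1.8e-09. In DBA males 5 of the 14 were higher and 4 lower, against 17.7% of all genes. Arntl was higher there by 2.26 ± 0.39 on the log2 scale. Cry1 did not pass there (0.25 ± 0.21, adjusted p = 0.46).

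Genes known as liver targets of the PAR bZIP activators were called in both directions. Of 11, 2 were higher and 2 lower in the mean of classes (median -0.02), close to the 37.8% of all genes called there. Por, the electron donor of cytochrome P450 enzymes, was at 0.38 ± 0.12 and the P450 Cyp2c37 at 0.28 ± 0.12, while the P450 genes Cyp2a5 and Cyp2a4 were at -0.91 ± 0.25 and -1.16 ± 0.46. Cyp2a4 and Cyp2a5 are near-identical copies, and the authors' counting could split their reads. In DBA males 0 of the 11 were higher by edgeR's test and 4 were lower (median -0.33), against 17.7% of all genes. Among the 4 was Cyp2a5 (-2.48 ± 0.52, adjusted p = 0.00036). In DBA females 1 was higher and 0 lower (median 0.23), against 11.8% of all genes. In B6 males 0 were higher and 1 lower (median -0.25), against 5% of all genes. In B6 females 3 were higher and 0 lower (median 0.10), against 20.8% of all genes. Whether the values of these targets follow those of the activators was not tested. Of 10 other clock-controlled liver genes, 2 were higher and 3 lower in the mean of classes (median -0.16), against 37.8% of all genes. Among them the cell cycle kinase Wee1 was at -1.14 ± 0.18, the phosphatidate phosphatase Lpin1 at 1.17 ± 0.23, and the liver glycogen synthase Gys2 at -0.40 ± 0.10.

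By Pearson correlation alone, the 3 genes whose 12 group means were most correlated with those of each member were listed, as a description. For Dbp they included Rnf19b (r = 0.983) and Ift52 (0.972), and for Tef they included Cyp2j5 (0.962) and Ift52 (0.961). For Ciart they were Tmem184c (0.956), Tmem86b (0.932) and Thrsp (0.92), and for Usp2 they were Selenbp1 (0.922), Nckipsd (0.921) and Nrg4 (0.919). The nearest gene was at 0.978 for Bhlhe41 (2810408I11Rik), 0.957 for Rora (Alg10b), 0.919 for Bhlhe40 (Ptges), 0.908 for Hlf (Pecr) and 0.856 for Nfil3 (Cad). These points share libraries within a group.

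Markers of other cells moved with the low diet in some classes. For scale, 37.8% of all tested genes were called in the mean of classes and 17.7% in DBA males. Of 7 Kupffer cell and macrophage markers 5 were lower in the mean of classes, and their sum was 49.3 to 203 CPM on low isoleucine and 68.1 to 448 CPM on control, with no marker at 0. In DBA males, where 7 of the 9 clock output genes fell, the 7 markers had a median log2 fold change of 0.08 and their sum was 93.3 to 129 CPM on low isoleucine and 68.1 to 129 CPM on control. Of the other lists, 3 of 5 hepatocyte and 3 of 5 sinusoidal endothelium markers were higher, and 2 of 5 stellate cell and 1 of 7 lymphocyte and NK cell markers were lower in the mean of classes. One cholangiocyte marker of 4, Sox9, was higher (0.33 ± 0.12, adjusted p = 0.026). The one adipose marker tested, Cfd, was lower in the mean of classes (-2.34 ± 0.62, adjusted p = 0.0019) and in DBA males (-3.82 ± 1.18, adjusted p = 0.017), where the adipose sum was 0 to 0.45 CPM on low isoleucine and 0.553 to 6.03 CPM on control. The one pancreas marker tested, Cela1, was lower in the mean of classes (-0.40 ± 0.08, adjusted p = 7.6e-05) and in DBA males (-0.47 ± 0.16, adjusted p = 0.026). Of 4 genes induced by glucocorticoids (Fkbp5, Tsc22d3, Sgk1 and Per1), 3 were higher in the mean of classes, with sums of 107 to 414 CPM on low isoleucine and 79.7 to 226 CPM on control. In DBA males that sum was 107 to 262 CPM on low isoleucine and 79.7 to 124 CPM on control. Per1 is also counted among the core clock genes above, so these lists are not separate. The part of the marker and glucocorticoid-induced genes in the results was not tested.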

How the data were processed

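Per the labels, the authors aligned reads of 72 liver libraries to GRCm38.p5 and deposited expected counts by Ensembl identifier. Aligner, counting program and strand setting are not stated in the labels. Such estimates need not be whole, and 9.56% of nonzero values were not. R 3.4.3, limma and edgeR are listed in the submitters' processing notes. The labels name both a polyA-enriched and a total RNA preparation. Deposited tables of the authors' own comparisons were not used, since the labels do not explain their diet codes. Columns were matched to libraries by title (0 left unmatched).

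Of 50308 lines 1 was incomplete and left out. Expected counts were rounded, filtered with edgeR's filterByExpr by group and scaled by TMM (factors 0.841 to 1.14), and 14954 genes were tested in a single edgeR quasi-likelihood fit of all 72 libraries, robust, with a mean per group. P-values were adjusted by Benjamini-Hochberg over every tested gene, with a threshold of 0.05. CPM uses TMM-scaled library sizes; correlations used log2 CPM with a prior count of 2. Mean effects average the 4 classes, and differences are interaction terms. Exon lengths came from an Ensembl annotation of GRCm38. Simulated data were used to test the scripts. The tools were edgeR 4.0.16, DESeq2 1.42.0 and limma 3.58.1 in R 4.3.3, with scipy 1.17.1 and numpy 2.4.6. Alternatives were RLE scaling, no filter, a fit of each class alone, leaving out B6 female control replicate 4 or, chosen after the data were seen, DBA male high replicate 3, limma voom with library weights or with the title number as a block, and DESeq2. The title number pairs libraries within a group only: their deviations had a median correlation of -0.027 over 36 pairs, and -0.25 over 144 other pairs of the same group. Deviations from the mean of the same 6 libraries are negatively correlated by construction, so the first value is to be read against the second.

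The 9 genes and the lists were chosen with earlier results of these data known. All 9 are named whatever their test, with up to 4 genes of lowest adjusted p from each of the other clock lists and, from the 3 nearest genes by likeness, those given in the text; 1 gene is not reported here. The contrast of DBA males minus DBA females and the permutation within title numbers were added after the values were seen. Replicates are numbered in accession order and pair no libraries.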

Additional observations from a re-analysis of the deposited data

Results flagged for a closer look

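Averaged over the strains, the response of Ciart and Usp2 to low isoleucine differed between the sexes. The difference, male minus female, was -3.22 on the log2 scale for Ciart and -2.34 for Usp2, and within DBA, males minus females, it was -4.15 for Ciart and -3.91 for Usp2. All 4 passed edgeR's test of the interaction, but the contrast within DBA was chosen after the values were seen. The sexes were not compared within B6. The low isoleucine values there were -1.49 in males and 0.80 in females for Ciart, and -0.75 and 0.03 for Usp2. In limma voom with the title number as a block, the value of Ciart within DBA did not pass (adjusted p = 0.095). In DBA males, whose libraries enter these contrasts, all 6 low libraries lay below all 6 control libraries for both genes.

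In 9 of 108 combinations of gene and group, 1 library stood apart from the other 5 by Dixon's test, where chance flags about 1 in 20 (5.4). Low libraries that stood apart were DBA female replicate 6 in Tef, at 36.6 CPM with the others at 88.4 to 105 CPM, and B6 male replicate 6 in Ciart, at 2.92 CPM with the others at 0.77 to 1.42 CPM. In Bhlhe41, B6 female low replicate 3 was at 0.518 CPM with the others at 0.111 to 0.237 CPM, and B6 male low replicate 3 was at 1.41 CPM with the others at 0.543 to 0.836 CPM. On high isoleucine, DBA female replicate 6 was at 13.1 CPM of Usp2 with the others at 0.834 to 4.26 CPM. B6 male high replicate 2 was at 31.7 CPM of Nfil3 with the others at 14.8 to 19.1 CPM. B6 female high replicate 5 was at 79.6 CPM of Hlf with the others at 60.3 to 65.6 CPM, and replicate 1 was at 86.8 CPM of Bhlhe40 with the others at 66.3 to 71.7 CPM. On control, B6 male replicate 1 was at 23.7 CPM of Hlf with the others at 48.8 to 62.9 CPM.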

How the results depend on the processing

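Of 48 calls on the 9 genes, all 48 were kept with RLE scaling, with DESeq2, without B6 female control replicate 4 and without DBA male high replicate 3 (left out after the data were seen), 47 without the filter, 46 with library weights and 34 with the title number as a replicate block; no called value changed sign. Of 114 uncalled values, 7 passed with library weights (Tef in B6 males and Rora in B6 females and DBA males on low isoleucine, Hlf in both sex differences, and Usp2 and Bhlhe40 between sexes on control), 1 with DESeq2 (Bhlhe41, DBA females, low) and 1 without B6 female control replicate 4 (Bhlhe40 between sexes); of 54, 1 passed in a class alone (Nfil3, DBA males, low). Under the block the genes called were 1 of 9 in B6 females, 1 in B6 males and 1 in DBA females on low isoleucine, and 1 in the DBA male minus female contrast. Of all 14954 genes, the block called 1852, 238, 827 and 130 in these comparisons, in that order. It used 1 consensus correlation for every gene, so a call kept under it may still be corrected too little. In a fit of DBA females alone 2 of 9 were called on low isoleucine, against 2078 of 13631 genes. The Rora call on high isoleucine in B6 males became 0 calls without the filter, in the class alone, with library weights and under the block. The cause of these changes was not tested. Of 36 pairs within groups, 29 passed without B6 female control replicate 4 and 31 with a prior count of 0.5, against 32; swaps within title numbers as a replicate block, added after the data were seen, left 12.

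Values that changed sign were all uncalled. Without the filter, Bhlhe40 and Rora were at 0.00105 and 0.00329 (high, mean of classes), Bhlhe41 at 0.0157 (high, DBA males) and Tef at 0.0203 (low, DBA males minus females). Without B6 female control replicate 4 and without DBA male high replicate 3, in that order, Usp2 was at -0.0911 and 0.0268 (low, B6 females), Hlf at -0.0152 and 0.0354, Rora at 0.0183 and 0.0221 and Bhlhe40 at -0.0364 and 0.0353 (high, mean), and Bhlhe41 at -0.00387 and 0.0184 (high, DBA males). With library weights, low-diet values were -0.223 for Usp2 in B6 females, 0.0508 for Hlf in DBA females and 0.0219 for the strain difference of Tef. High-diet values were -0.0093 for Usp2 and 0.03 for Rora in the mean, 0.00456 for Usp2 in DBA females, 0.0588 for Bhlhe41 in DBA males and 0.041 for the sex difference of Nfil3. Bhlhe41 between strains on control was at -0.0624. Under the block, Bhlhe40 was at 0.0141 (low, B6 males), 0.0266 (high, mean) and 0.098 (high, B6 females), Usp2 at -0.0562 (high, mean) and Bhlhe41 at 0.0205 (high, DBA males). Depth limits Bhlhe41 most, with under 10 counts in 13 libraries.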
